A study of Mus musculus with 2 samples.

Results

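The genes described here are 59 mouse odorant receptor genes, Olfr763 to Olfr829 by their number, with Olfr827 not analysed here. They were chosen by number alone and make up 5.20% of the 1135 receptor genes among the 31053 features of the count table. They are called the members below, and a cell that uses one of them is called a member cell. The cells came from the olfactory epithelium of a male C57BL/6 mouse in which the naris on one side was closed on postnatal day 14 and which was sampled on postnatal day 28. One single-cell RNA library was made from the open side and one from the closed side, from frozen dissociated cells after dead-cell removal, with the 10x Genomics 3′ version 3 kit. The barcodes carry a library suffix, 1 or 2, but the labels do not say which of the sides each suffix stands for. The text names library 1 and library 2 by suffix and leaves the side of each unnamed. There is 1 library per side from 1 animal, so no difference below has a replicate check and no test was run. Intervals are exact 95% binomial or Poisson intervals that cover counting error only and treat cells as independent, although cells that use the same receptor share their source.

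Each mature olfactory sensory neuron transcribes a single odorant receptor allele out of a very large gene family, and the receptor decides both which odorants the cell answers and where its axon ends in the olfactory bulb. Receptor genes lie in clusters of tandem duplicates, and each gene is used within a restricted zone of the epithelium that runs from dorsal to ventral. The dorsal zone is marked by the quinone reductase Nqo1 and the more ventral zones by the adhesion molecule Ncam2. Neurons first express the growth-cone protein Gap43 and, on maturing, switch to the olfactory marker protein Omp.

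By the GENCODE annotation of mm10 (GRCm38), 57 members lie side by side on chromosome 10 between positions 129010791 and 130184186, and Olfr828 and Olfr829 lie on chromosome 9 between positions 18814728 and 18859080. All 59 are annotated as protein coding, 27 on the plus strand and 32 on the minus strand. For 54 of the 59, the receptor with the most similar coding sequence was another member. That nearest identity had a median of 92.9% and ranged from 61.0% for Olfr796 to 99.3% for Olfr819, whose nearest relative is Olfr247. Among the 37 members that were assigned to a cell, the median identity over all 666 pairs was 67.3%, and the most alike pair was Olfr777 and Olfr800 at 96.8%. The last coding bases of that pair are shown because both genes were used by several cells and because they illustrate how close the tandem copies are. Each is read 5′ to 3′ on its own strand, from the GENCODE transcripts, and capitals mark the bases at which the pair differ. Olfr777 (minus strand) is at chr10:129268386-129268475 and Olfr800 (plus strand) at chr10:129660654-129660743.
Olfr777: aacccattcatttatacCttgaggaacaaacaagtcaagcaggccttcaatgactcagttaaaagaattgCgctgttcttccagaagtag
Olfr800: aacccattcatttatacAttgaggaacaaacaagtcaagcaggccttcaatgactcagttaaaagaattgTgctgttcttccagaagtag
The aligned stretches of Olfr776 (plus strand, chr10:129261812-129261897) and Olfr794 (plus strand, chr10:129571506-129571594) are shown because these were the members with the most cells and behaved unlike each other below. Here capitals mark bases that differ from, or have no partner in, Olfr800.
Olfr776: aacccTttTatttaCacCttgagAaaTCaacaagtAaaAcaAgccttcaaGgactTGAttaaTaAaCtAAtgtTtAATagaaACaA
Olfr794: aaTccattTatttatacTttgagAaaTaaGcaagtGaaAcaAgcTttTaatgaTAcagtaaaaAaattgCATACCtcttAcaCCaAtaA
Over these 90 coding bases Olfr777 and Olfr800 differ at 2, while the Olfr776 stretch has 26 capitals and the Olfr794 stretch 25. Near-identical copies such as Olfr772 and Olfr773, at 99.3% coding identity, Olfr764-ps1 and Olfr766-ps1, at 99.0%, and Olfr819 and Olfr247 could share reads, so their separate counts are uncertain.

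After filtering, 3032 cells of library 1 and 5266 cells of library 2 were kept, with a median of 5528 and 5139.5 UMIs (unique molecular identifiers, 1 per captured RNA molecule) per cell. To be assigned a receptor, a cell needed 3 or more UMIs of it, making up 2 in 3 or more of all its receptor UMIs. This gave 736 assigned cells in library 1 and 1152 in library 2. The classes used most are 2 mature OSN-like clusters (OSN, olfactory sensory neuron), 1 immature OSN-like cluster and a transition cluster led by Calb2 and Gap43. A cluster with a median of 14173 UMIs, led by genes of several stages, is called the mixed cluster. The mature cells of the libraries lie in different clusters: cluster 1, led by Dcdc2a and Stoml3, holds 410 cells of library 1 and 191 of library 2, and cluster 2, led by S100a5 and Kirrel2, holds 83 and 452. Library 1 and library 2 share 12 barcode sequences.

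Member receptors were used by 48 of the 736 assigned cells of library 1 (6.52%, interval 4.85 to 8.55%) and by 66 of the 1152 of library 2 (5.73%, interval 4.46 to 7.23%). The intervals overlap, and both include the 5.20% that the members make up of all receptor genes. Usage was uneven within the group. Of the 59 members, 37 had at least 1 assigned cell, 18 of them in both libraries, and 22 had none. By the limit of 3 counts that a count of 0 allows, a gene with no cell could still be used by up to 0.408% of assigned cells in library 1 and 0.260% in library 2. Olfr763, Olfr765, Olfr767, Olfr774, Olfr790 and Olfr829 had no UMI in any barcode.

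Olfr776 and Olfr794 had the most assigned cells, with 8 each. For Olfr776, 4 were in each library, and for Olfr794, 1 was in library 1 and 7 in library 2. Olfr800 and Olfr801 had 7 cells each, 5 and 6 of them in library 2. Olfr804 had 6, of which 5 were in library 1, and Olfr777, Olfr786 and Olfr796 had 5 each. The 10 most used members held 59 of the 114 member cells (51.8%), while 14 members had a single cell. The intervals are wide at these numbers: the 4 Olfr776 cells of library 1 are 0.543% of its assigned cells, with an interval of 0.148 to 1.39%. The cells were spread along the whole chromosome 10 cluster, with gaps of unused genes between used ones.

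**Figure D1:**
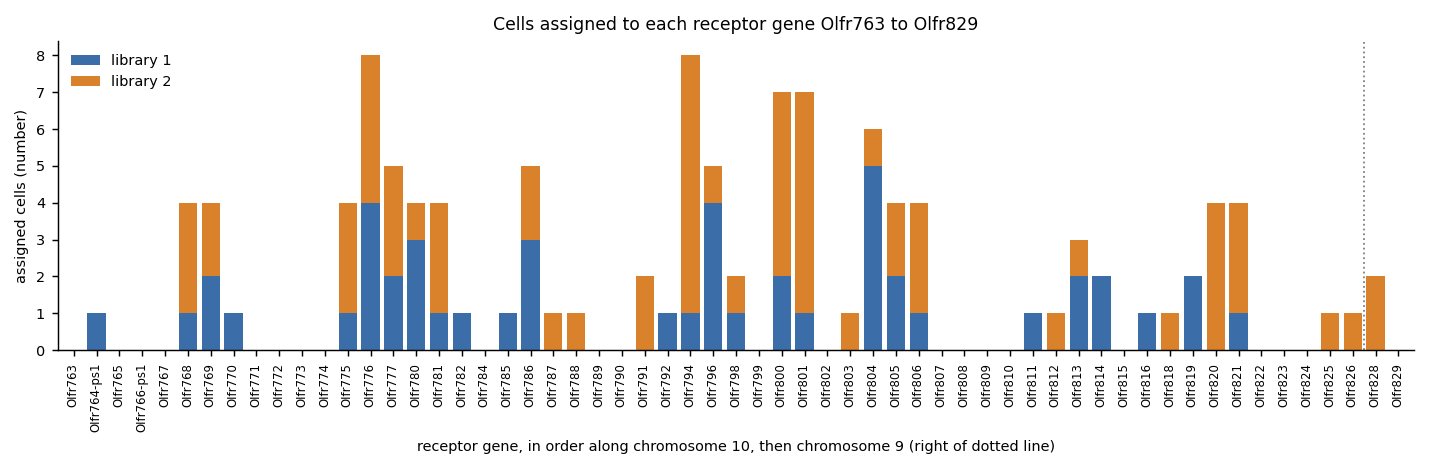
Number of cells assigned to each of the 59 receptor genes (y axis), in order along chromosome 10 and then chromosome 9 (x axis); blue is library 1 and orange library 2, stacked. Olfr776 and Olfr794 reach 8 cells, and 22 genes have none.

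Mature member cells had a median of 45 UMIs of their receptor, from 7 to 219, against a median of 42 and a range of 3 to 547 in mature cells of other receptors. These are 3′ counts with no correction for gene length. The lowest and highest values belonged to particular members: the 2 mature cells of Olfr828 on chromosome 9 had 7 and 8 UMIs, and the 4 of Olfr775 between 10 and 16. The 6 of Olfr801 had between 90 and 130 and the 4 of Olfr777 between 93 and 171. The single mature Olfr814 cell had 142, and 1 Olfr794 cell had 219. A second receptor with at least 1 UMI was seen in 16 of 81 mature member cells (19.8%) and in 209 of 989 mature cells of other receptors (21.1%).

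Member cells were mostly mature. Of the member cells that were mature or immature OSN-like, 2 of 42 were immature in library 1 (4.76%, interval 0.582 to 16.2%) and 4 of 45 in library 2 (8.89%, interval 2.48 to 21.2%). In cells of other receptors the immature shares were 15.6% in library 1 (77 of 495, interval 12.5 to 19.1%) and 27.6% in library 2 (218 of 789, interval 24.5 to 30.9%). The intervals overlap in library 1 and do not overlap in library 2. A further 11 member cells lay in the transition cluster, 2 from library 1 and 9 from library 2. Counting that cluster as immature, an alternative added after the data were seen, gave 9.09% (4 of 44, interval 2.53 to 21.7%) in member and 28.3% (24.7 to 32.1%) in other cells of library 1, and 24.1% (13 of 54, interval 13.5 to 37.6%) and 38.1% (35.0 to 41.4%) in library 2. The intervals then overlap in library 2 and not in library 1, so in each library the non-overlap depends on where that cluster is counted. The 6 immature cells used 6 different members, among them Olfr776, Olfr787, Olfr812 and Olfr820. In the transition cluster Olfr768 was held by 3 cells and Olfr794 by 2. Immature member cells had a median of 27 receptor UMIs, and transition cells 56.

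A further 9 member cells, all from library 2, fell outside the neuronal clusters, among them 2 sustentacular-like, 2 GBC-like (globose basal cell) and 4 neutrophil-like cells. Their median depth was 14029 UMIs, against 4879 in mature member cells. Whether they hold more than 1 cell was not tested. A member UMI, not enough for an assignment in most, was seen in 37 of 249 cells of the early cluster led by Crabp1 and Tex15 (14.9%) and in 27 of 1811 sustentacular-like cells (1.49%).

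Cd36 and Tshz1 were far higher in member cells than in cells of other receptors. Cd36 is a scavenger receptor for fatty acids and lipids and is known from a subset of olfactory sensory neurons. Tshz1 is a zinc-finger transcription factor of the teashirt family. Over mature cells, Cd36 was at 832 CPM (UMIs summed over cells and scaled to a common total; interval 708 to 970) in member cells of library 1 and at 492 CPM (400 to 600) in library 2. For cells of other receptors the level was 54.0 CPM (44.8 to 64.6) in the first library and 60.8 CPM (52.1 to 70.5) in the second. Tshz1 was at 1135 CPM in member cells of library 1 and 748 CPM in library 2, against 131 and 160 CPM in cells of other receptors. The intervals of member and other cells do not overlap for either gene in either library.

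Counted by cell, 55 of the 81 mature member cells had a Cd36 UMI (67.9%, interval 56.6 to 77.8%), 30 of 40 in library 1 and 25 of 41 in library 2. Of 989 mature cells of other receptors 65 did (6.57%, interval 5.11 to 8.30%). B lineage-like cells, set beside them as a non-neuronal class, had it in 18 of 537 cells (3.35%). Their median was 1522 UMIs per cell, against 4879 in mature member cells and 5070 in other mature cells. After thinning every cell to 2000 UMIs the shares were 55.7% in member cells, 4.73% in other mature cells and 5.76% in B lineage-like cells, with 2 member cells, 17 other mature cells and 398 B lineage-like cells left out as too shallow. Tshz1 was found in 65 of 81 member cells (80.2%), in 331 of 989 other cells (33.5%) and in 22 of 537 B lineage-like cells (4.10%). Member receptors accounted for 7.57% of the mature assigned cells, but for 40 of the 80 that had 3 or more Cd36 UMIs.

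Cd36 was also carried by other cell types of the tissue. It was at 250 CPM in sustentacular-like cells and at 121 CPM in endothelial-like cells, both below member cells. The sum of 8 sustentacular markers was 190 CPM in member cells of library 1 and 563 CPM in library 2, against 188 and 450 CPM in cells of other receptors and 43113 CPM in sustentacular-like cells. Of the 8 markers, Ermn, Sult1c1 and Muc2 were at 0 in member cells of library 1, and Muc2 was at 0 in library 2. In library 2, Cbr2 was at 291 CPM in member cells (interval 221 to 377) and 140 CPM in other cells (127 to 155). By cell, however, Cbr2 had a UMI in 43.9% of member cells and 40.8% of other cells, and 1 member cell reached 4376 CPM. Gstm2 was at 75.3 CPM (42.2 to 124) and 14.2 CPM (10.2 to 19.2). Its level in member cells rested on 15 UMIs in 6 cells (14.6%, against 6.48% of other cells), the highest at 820 CPM. Summed levels that rest on so few cells do not describe member cells as a group. Ermn and Cyp1a2 were nominally higher there in member cells, on 2 and 3 UMIs, and Cyp2g1, Sult1c1, Muc2 and Cyp2a5 lower. For each of these genes the intervals of member and other cells overlap in library 2. The part of sustentacular RNA in the Cd36 counts was not tested. Of 5 endothelial markers 4 were at 0 in member cells of each library.

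Members differed among themselves in both genes. Among the 31 members with a mature cell, 22 had Cd36 in at least 1 such cell and 9 did not. In the 59 mature cells of the 22, Cd36 was present in 55 and Tshz1 in 58; the Cd36 count rests partly on how the 22 were picked. The other 9, picked for having none, had 22 mature cells, of which 7 had Tshz1. In Olfr776 cells the Cd36 counts were 6, 6, 3 and 11 UMIs in library 1 and 4, 0 and 4 in library 2. The Tshz1 counts in those cells were 6, 8, 4 and 7 in library 1 and 1, 4 and 3 in library 2. All 7 cells had Tshz1 and 6 had Cd36. In Olfr800 cells Cd36 was counted 6 and 10 times in library 1 and 2, 4, 4 and 6 times in library 2, so that none of the 6 cells lacked it. In Olfr801 cells, all from library 2, the counts were 6, 6, 0, 1, 2 and 7. Olfr804 had 5, 7, 1 and 1 in library 1 and 2 in library 2, and Olfr786 had 5, 2 and 4 in library 1 and 6 and 3 in library 2. Across these receptors a cell without Cd36 was the exception in both libraries.

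Olfr794 was the opposite. Its 6 mature cells had no Cd36 and no Tshz1 UMI, with 36 to 219 UMIs of the receptor itself and 1889 to 6462 UMIs in all. Neither gene was found in mature cells of Olfr764-ps1, Olfr768, Olfr819, Olfr820 and Olfr826 on chromosome 10 or of Olfr828 on chromosome 9, which together with Olfr794 had 14 mature cells. Olfr775 and Olfr796 had low Tshz1, between 0 and 2 UMIs in each of their 8 cells, and no Cd36. Some receptors without Cd36 lie among receptors with it. Olfr775 is next to Olfr776, with 96.1% coding identity. Olfr794 and its neighbour Olfr796, both without Cd36, lie between Olfr786 and Olfr798, whose cells had it. Others lie at the ends of the cluster. Olfr764-ps1 and Olfr768 are the first receptors with a mature cell along chromosome 10. Olfr819, Olfr820 and Olfr826 are near its other end, with Olfr821, whose cells had Cd36, among them. The median coding identity was 68.6% over pairs of Cd36 receptors and 64.7% over pairs of 1 receptor with and 1 without. Over the 36 pairs of receptors without Cd36 it was lowest, at 59.2%. Those receptors include Olfr828 on chromosome 9, and Olfr796, Olfr819 and Olfr828 have their most similar receptor outside the members. Olfr764-ps1, Olfr768, Olfr820 and Olfr826 count as without Cd36 from 1 mature cell each.

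**Figure D2:**
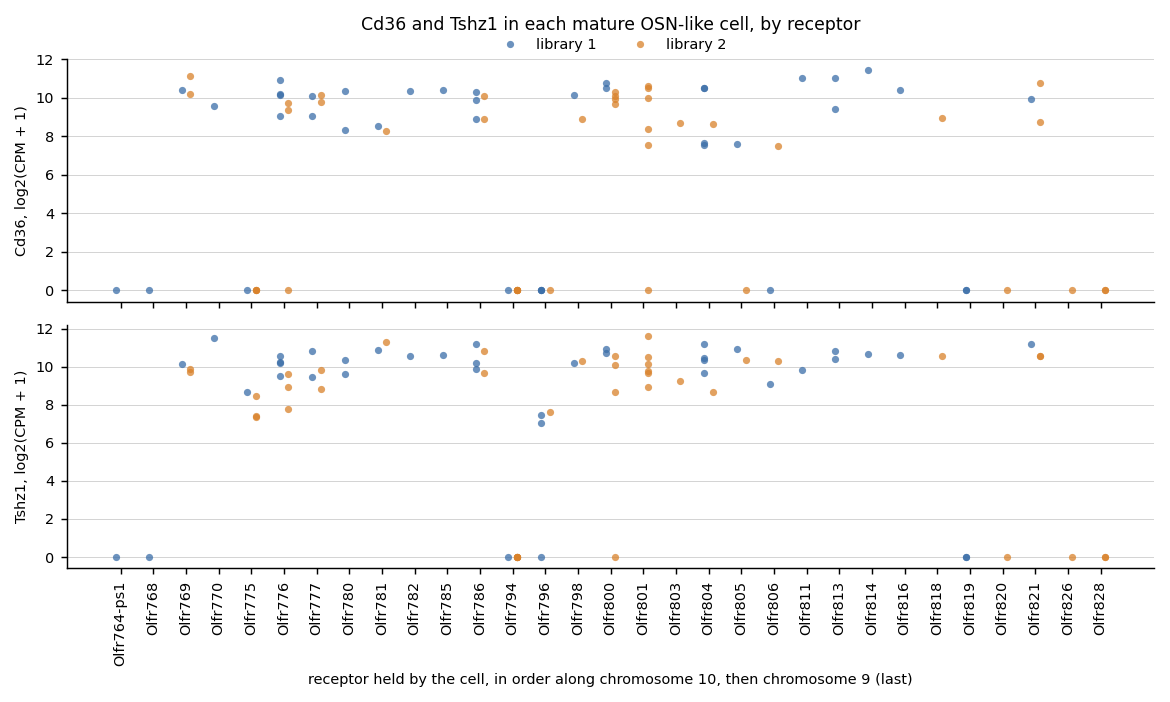
Cd36 (top) and Tshz1 (bottom) in each mature cell as log2(CPM + 1) on the y axis, by the receptor the cell holds, in order along chromosome 10 with Olfr828 of chromosome 9 last (x axis); blue is library 1 and orange library 2. Most receptors sit above 7 on both scales, while Olfr764-ps1, Olfr768, Olfr794, Olfr819, Olfr820, Olfr826 and Olfr828 are at 0 on both.

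Few member cells before the mature stage had Cd36. Of the 17 member cells in the transition or immature cluster, 1 had a Cd36 UMI (11.9 CPM over the 17), while 8 had Tshz1 (464 CPM). Only 6 of these cells used a receptor from the 22 above, 4 transition cells with 1 Cd36-positive cell and 2 immature cells with none. In the same 4 transition cells 3 had Tshz1. The early cluster, before most cells have an assigned receptor, had Tshz1 at 775 CPM in 228 of 249 cells and Cd36 at 4.33 CPM. The mixed cluster held 7 member cells, all of them with Cd36, at 8857 to 17458 UMIs per cell. Its leading genes include Insl6 and Edn2, which also lead a sustentacular-like cluster, and sustentacular-like cells had Cd36 in 72.6% of cells; the part of either in this count was not tested.

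Across the 3593 genes that reached 50 CPM in member or other cells in both libraries, receptor and mitochondrial genes left out, 24 were at least 2-fold higher in member cells in both libraries (0.668%) and 28 at least 2-fold lower (0.779%). With 1 library per side, these are sizes and not calls of a test. The largest ratio was that of Klkb1, the gene of plasma prekallikrein, at 97.5 and 85.4 CPM in member cells of library 1 and library 2 and at 1.79 and 7.60 CPM in other cells. Cyp4v3, a fatty acid hydroxylase of the cytochrome P450 family and the neighbour of Klkb1 on chromosome 8, was at 56.5 and 65.3 CPM against 4.02 and 10.0 CPM. Zfp407 and Zadh2, a zinc-finger protein and a reductase, are neighbours of Tshz1 on chromosome 18. Zfp407 was at 257 and 161 CPM against 28.6 and 31.1 CPM, and Zadh2 at 118 and 60.3 CPM against 12.1 and 16.2 CPM.

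The other named genes on the high side encode surface proteins. Pcdh11x, a protocadherin, was at 149 and 110 CPM in member cells against 18.3 and 21.8 CPM. Cd55, the complement decay-accelerating factor, was at 539 and 412 CPM against 128 and 103 CPM, and was found with at least 1 UMI in 26 of the 31 members with a mature cell. Every receptor with Cd36 in a mature cell also had Cd55. Of the 9 receptors without Cd36, Olfr794, Olfr768, Olfr775 and Olfr764-ps1 had 7, 3, 3 and 1 Cd55 UMIs. Olfr796, Olfr819, Olfr820, Olfr826 and Olfr828 had 0. Weighting every receptor equally, which removes the pull of the frequent ones, the mean Cd36 level was 708 CPM over 31 members and 61.4 CPM over 460 other receptors, and for Tshz1 it was 987 and 146 CPM.

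On the low side, Rprm, a gene known for cell-cycle arrest, had no UMI in member cells of library 1 and 1 UMI in library 2, against 55.8 and 131 CPM in other cells. In these data Rprm is among the leading genes of the immature OSN-like cluster. The part of cell stage in its level was not tested. Crabp1, a retinoic acid-binding protein that here leads the early cluster, had 0 and 2 UMIs against 50.9 and 115 CPM. The level in other cells came from 44 of 989 cells (4.45%), with 37.9% of the UMIs in 3 of them, and the gene was found in 2 of 31 members (6.45%) and 41 of 460 other receptors (8.91%). Cidea, a lipid-droplet protein, was at 46.2 and 5.02 CPM against 205 and 157 CPM. The interferon-induced Ifi27 was at 5.13 and 15.1 CPM against 77.7 and 81.2 CPM, and the metalloprotease gene Adam28 at 10.3 and 20.1 CPM against 88.9 and 89.8 CPM. Tuba4a, an alpha-tubulin, Crocc, the rootletin of the ciliary rootlet, and Nfia, a transcription factor of the nuclear factor I family, rested on 3 and 1, 4 and 1, and 3 and 2 UMIs in member cells. Their levels in other cells were between 52.8 and 73.2 CPM.

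**Figure D3:**
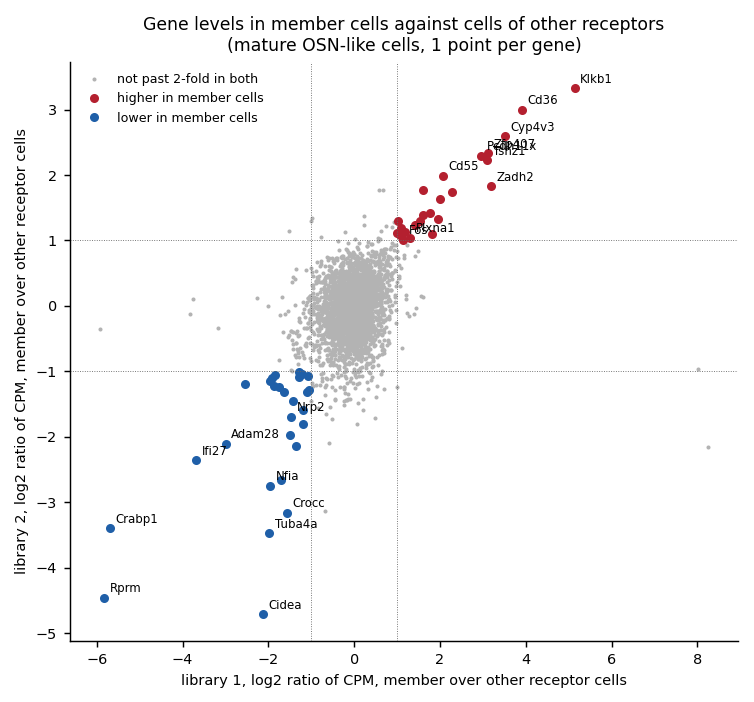
Ratio of CPM in member cells to that in cells of other receptors, log2 with 1 CPM added, in library 1 (x axis) and library 2 (y axis), 1 point per gene over mature OSN-like cells. Dotted lines mark 2-fold, red marks the 24 genes higher and blue the 28 lower in both libraries, and Klkb1 and Cd36 lie farthest to the upper right.

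By zone markers, most mature member cells carried neither. In library 1, 5 of 40 had Nqo1 only, 5 had Ncam2 only and 30 had neither (75.0%, interval 58.8 to 87.3%). In library 2, 3 of 41 had Nqo1 only, 7 had Ncam2 only and 31 had neither (75.6%, interval 59.7 to 87.6%). In other receptors' cells the share with neither was 51.7% in library 1 (interval 46.8 to 56.6%) and 47.6% in library 2 (43.5 to 51.8%), and Ncam2 alone was found in 34.7% and 34.2%. The intervals of the share with neither do not overlap between member and other cells in either library, at median depths of 4879 and 5070 UMIs. B lineage-like cells had each marker in 1 of 537 cells. After thinning to 2000 UMIs the share with neither was 87.5% in member cells of library 1 (interval 73.2 to 95.8%) and 71.6% in other cells (67.0 to 76.0%), and in library 2 it was 86.5% (71.2 to 95.5%) and 71.1% (67.1 to 74.9%). At that equal depth the intervals overlap in both libraries.

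Nqo1 had a UMI in 8 of the 31 members with a mature cell (25.8%) and in 120 of 460 other receptors (26.1%). Of its 34 UMIs in mature member cells, 11 were in 1 Olfr794 cell, and 19 of the 34 were in receptors with neither Cd36 nor Tshz1. Of those 19, 4 were in the single Olfr764-ps1 cell. The other 15 of the 34 were in 1 cell each of Olfr782, Olfr813, Olfr816 and Olfr821. Among the 6 genes on the ventral list 3 were at least 2-fold lower in member cells in both libraries and 1 was higher. Whether each gene of the dorsal and ventral lists marks a zone in these cells was not tested. Over all 3593 genes compared the shares were 0.779% lower and 0.668% higher. Ncam2 was at 25.7 and 45.2 CPM against 94.7 and 95.3 CPM. Nrp2, a semaphorin receptor that guides axons in the bulb, was at 46.2 and 30.1 CPM against 129 and 99.8 CPM, and Nfia is given above. Plxna1, a plexin through which semaphorins signal, was higher at 200 and 241 CPM against 80.4 and 117 CPM. It is also on the list of genes lowered by activity, so its level is not a reading of zone alone. Under alternative settings Nrp2 fell short of 2-fold in library 1 (log2 -0.78, thinned cells), Nfia in both (-0.95 and -0.90, clustering without zone and activity genes) and Plxna1 in library 2 (down to 0.74). With every receptor weighted equally, the log2 ratio of Plxna1 was 0.93, also short of 2-fold. Nfib and Nfix did not pass 2-fold. Of the 4 genes on the dorsal list 3 were at a level to be compared and none passed 2-fold in both libraries. Nqo1 was at 71.9 and 100 CPM in member cells against 146 and 181 CPM. Acsm4, also on the dorsal list, was at 118 and 50.2 CPM against 59.8 and 60.1 CPM. Robo2, an axon-guidance receptor, was at 175 and 105 CPM against 75.5 and 93.9 CPM. Nrp1, too low to be compared, was at 10.3 and 0 CPM against 31.3 and 31.8 CPM. The median ratio over the ventral list was -0.80 in library 1 and -0.57 in library 2 on the log2 scale, against -0.02 and -0.01 over all genes compared.

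**Figure D4:**
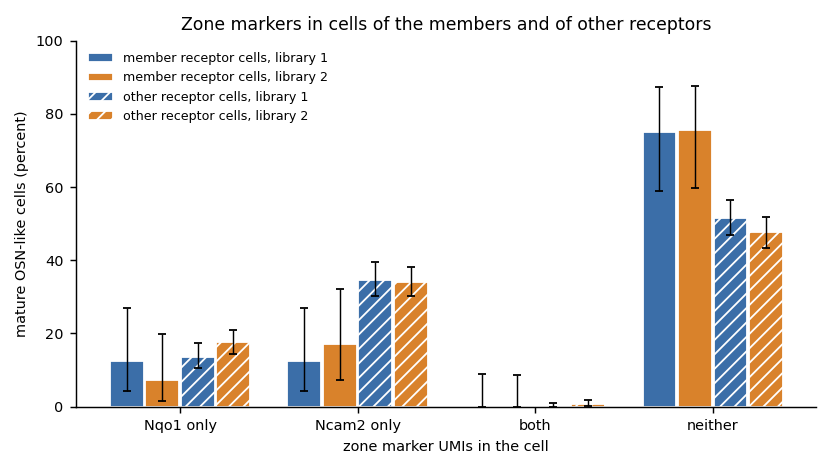
Share of mature OSN-like cells (y axis, percent) with a UMI of Nqo1 only, Ncam2 only, both or neither (x axis), in member cells (plain bars) and cells of other receptors (hatched bars) of library 1 (blue) and library 2 (orange); error bars are exact 95% binomial intervals. The share with neither is 75.0% and 75.6% in member cells and 51.7% and 47.6% in other cells.

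Genes known to follow the activity of olfactory neurons differed between the libraries in member cells. S100a5, a calcium-binding protein whose level is known to rise with stimulation, was at 164 CPM in member cells of library 1 (interval 112 to 232) and at 16248 CPM in library 2 (15693 to 16818). In cells of other receptors it was at 2244 CPM in library 1 and 15152 CPM in library 2. The log2 ratio of library 2 to library 1 was thus 6.62 in member cells and 2.75 in other cells. The member ratio was 5.21 with stage taken from Omp against Gap43 and 5.55 with activity and zone genes left out of the clustering. Per cell, the upper quartile in library 1 was 144 CPM in member cells and 1148 CPM in other cells, and the highest cell was at 2234 and 40161 CPM. In library 2 the medians were 8492 and 8637 CPM. All 40 mature member cells of library 1 lay in cluster 1 (interval from 91.2%), against 345 of 418 cells of other receptors (82.5%, interval 78.5 to 86.1%). In library 2, cluster 1 held 12 of 41 member cells (29.3%) and 29.6% of the other cells. S100a5 was not left out of this clustering and leads cluster 2, so these shares partly restate the S100a5 levels.

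Pcp4l1, a calmodulin-regulating peptide, was at 5.13 and 1271 CPM in member cells against 371 and 1629 CPM in other cells. Kirrel2, an adhesion molecule of axon sorting, was at 25.7 and 241 CPM against 53.1 and 274 CPM. Of the 8 genes listed as raised by activity, 6 were at a level to be compared in member cells, and 4 were at least 2-fold higher in library 2 (as did 6.38% of the 4199 genes compared). In other cells it was 5 of 7 (0.904% of 3759). The compared genes that did not pass were Pcdh10, a protocadherin, and Sema7a, a semaphorin, in member cells, and Pcdh10 and Cidea in other cells. Of the 6 genes listed as lowered by activity, 3 were at least 2-fold lower in library 2, in member cells (7.05% of all genes) and in other cells (0.213%): Calb2, Efna5 and Kirrel3. Calb2, the calcium buffer calretinin, was at 996 and 311 CPM in member cells against 1547 and 547 CPM. The mature member cells used partly different receptors in each library, 25 members in library 1 and 20 in library 2. Olfr801, for example, had 0 mature cells in library 1 and 6 in library 2. Library, side, handling, the receptors used and the split of mature clusters cannot be told apart in these comparisons.

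**Figure D5:**
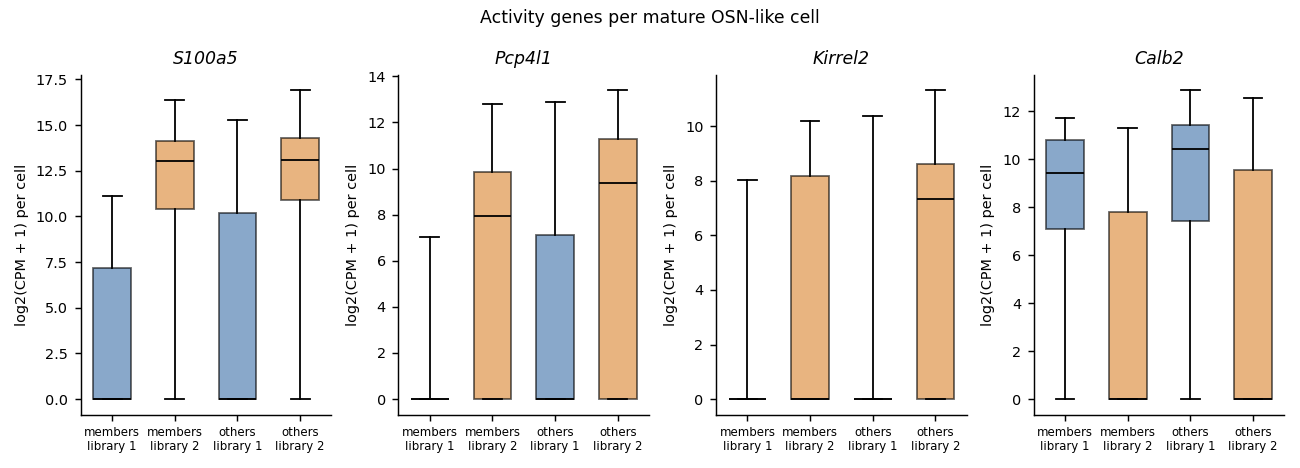
Level per mature OSN-like cell as log2(CPM + 1) (y axis) of S100a5, Pcp4l1, Kirrel2 and Calb2, in member cells and cells of other receptors of library 1 (blue) and library 2 (orange); boxes give the quartiles, the line the median and the whiskers the lowest and highest cell. S100a5 in member cells has a median of 0 in library 1 and of 8492 CPM in library 2.

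The library 2 level of S100a5 differed between members. It was absent in 6 of 41 member cells, and 4 of these were among the 5 Olfr794 cells. The Olfr794 cells had 0, 0, 0, 0 and 19 UMIs, or 936 CPM over the 5 cells. The 2 Olfr769 cells had 0 and 1 UMI, and the 2 Olfr821 cells had 1 each, at 213 and 216 CPM. By contrast the 3 Olfr776 cells had 85, 64 and 514 UMIs (41640 CPM), the 3 Olfr775 cells 153, 346 and 195 (39048 CPM), and the 6 Olfr801 cells from 6 to 227. Each of these receptors has few cells, and the order of neighbouring receptors cannot be resolved.

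The immediate early gene Fos was at 1453 and 979 CPM in member cells and at 656 and 484 CPM in other cells, at least 2-fold higher in both libraries. Egr1 was at 210 and 497 CPM against 110 and 204 CPM. Of the 8 immediate early genes 5 were at a level to be compared, and Fos alone passed 2-fold in both libraries. Over all 3593 genes compared, 0.668% were at least 2-fold higher in both libraries and 0.779% at least 2-fold lower. Of the 10 stage genes 9 were compared, and of the 9 genes listed for receptor choice and feedback all 9 were, and none passed 2-fold in both libraries. Omp was at 4908 and 4646 CPM in member cells against 5138 and 5288 CPM. Atf5, a factor of the stress response that a chosen receptor sets off, was at 2269 and 2205 CPM against 2132 and 2393 CPM. Gap43 differed in library 1 only, at 5.13 CPM (1 UMI) against 86.2 CPM, with 116 and 125 CPM in library 2. The sum of 14 immature OSN markers was 1910 and 2466 CPM in member cells and 2024 and 2573 CPM in other cells.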

How the data were processed

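The authors deposited 1 aggregated table of raw UMI counts per gene and barcode, made with Cell Ranger 3.0.2 on mm10, per the submitters' processing notes. Whether aggregation equalised the depth of the libraries is not stated in these sources. The libraries hold 4501 and 7990 barcodes with 27212821 and 49221001 UMIs. Cells with at least 1000 UMIs, 500 genes and at most 10% mitochondrial UMIs were kept. Cells were clustered without receptor genes (scanpy 1.11.5, 2000 variable genes, 30 components, 15 neighbours, Leiden resolution 1) and named from marker lists. The mixed cluster was left unnamed by a rule added after the clusters were seen. A doublet caller marked 0.0844% of cells, which is too few to have worked, so doublets were kept.

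Counts were summed by library and by member or other receptor, and ratios were taken of CPM plus 1. Genes named are members with at least 3 assigned mature or immature cells or with a printed sequence, genes of the fixed lists, and up to 8 per direction by mean ratio, with at least 50 UMIs and no 3 cells holding 50% of them. Other genes, receptors and single cells were named after their values were seen, including Olfr828, Olfr819, Olfr826 and Olfr764-ps1. Members and lists were chosen with earlier results of these data known. Annotation was GENCODE on GRCm38, where 31011 of 31053 gene IDs matched. RefSeq promoter windows, found for 47 members, all began within 100 bases of the start codon and are not printed. The comparison was tested on simulated counts.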

Additional observations from a re-analysis of the deposited data

Results flagged for a closer look

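Among the activity and immediate early genes at 50 CPM or more, 4 moved in opposite directions between the libraries in member cells and in cells of other receptors, by the log2 ratio of library 2 to library 1. Hist2h2be was at 0.25 in member cells and -0.22 in other cells, Epha5 at -0.10 and 0.23, Fosb at 0.087 and -0.14, and Ier2 at 0.068 and -0.14. Each group is 1 library, these differences were not tested, and none reaches 2-fold.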

How the results depend on the processing

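No paired analysis was possible because each side is a single library and no suffix is tied to a side. Of 165 values that answer a comparison under 16 alternatives, 150 stayed within the main value's counting interval or within 1.5 times the main count. No direction reversed, and the log2 ratios of Cd36, Tshz1, Klkb1, Nrp2, Plxna1 and Nfia also kept their sign, but Nfia, Nrp2 and Plxna1 each fell below 2-fold in a library under some alternative. The numbers of genes at least 2-fold higher and lower, 24 and 28, became 59 and 66 with cells thinned to 2000 UMIs, 67 and 87 with a minimum of 20 CPM, and 11 and 8 at 3-fold; without a cell filter 43 were lower. Thinning also gave 87.5% of library 1 member cells with neither zone marker, a median of 18 receptor UMIs and a second receptor in 9.09% of cells, as its fewer UMIs per cell entail. With stage taken from Omp against Gap43 the S100a5 log2 ratio of library 2 to library 1 was 5.21 and that of Calb2 -1.09; with activity and zone genes left out of the clustering they were 5.55 and -2.20, against 6.62 and -1.67, and the cause was not tested. Counting the transition cluster as immature, an added choice, left 75.9% of library 2 member cells mature, against 91.1%. Of the 24 and 28 genes, 21 and 24 were shared without Olfr776, also added, 16 and 20 with cells of at most 5% mitochondrial UMIs, 18 and 18 with the Omp rule, and 18 and 19 with the other clustering. Depth limits the members one by one: 14 have a single cell.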

Other observations

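The 40 mature cells with 3 or more Cd36 UMIs that did not use a member used 25 other receptors, led by Olfr1275, Olfr1277, Olfr1278, Olfr1305 and Olfr622 with 3 cells each. Of all 80 cells with 3 or more Cd36 UMIs, 79 also had Tshz1. By number range, 32 of 178 mature cells of Olfr1200 to Olfr1318 had a Cd36 UMI (18.0%), as did 16 of 76 of Olfr543 to Olfr692 (21.1%) and 1 of 50 of Olfr830 to Olfr986 (2.00%).

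The single Olfr764-ps1 cell, in library 1, had 545 UMIs of S100a8 and 402 of S100a9, which encode neutrophil granule proteins, beside 19 UMIs of its receptor and 6524 UMIs in all. Of the other 39 mature member cells of library 1, 4 had 1 UMI of either gene. Whether this barcode holds more than 1 cell was not tested.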
